A study of Mus musculus with 36 samples.

Results

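Urine that has passed the proximal tubule and the thin limbs is reworked by the thick ascending limb, the distal convoluted tubule, the connecting tubule and the collecting duct, and 37 mouse genes that mark or equip these segments were followed here. They were taken from a list of gene symbols, and all 37 were present among the 53379 genes of the count tables. By segment, 11 belonged to the thick ascending limb, 10 to the distal convoluted and connecting tubule, 10 to the principal cell of the collecting duct and 6 to its intercalated cell. The assignment is a simplification, since Fxyd2, Kcnj16 and Cldn10 are also made in the proximal tubule and Pvalb and Aqp4 are well known from muscle or nerve cells and from astrocytes.

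The tissue came from mice carrying the ASPSCR1-TFE3 LSL/+ allele, in which a stop cassette between loxP sites keeps a human translocation carcinoma fusion silent until Cre removes it. Total RNA was sequenced in 36 libraries from formalin-fixed, paraffin-embedded tissue of 17 animals. In the adult model (Sglt2-Cre; ASPSCR1-TFE3 LSL/+), 6 mice supplied kidney tumors (11 libraries), retro-orbital tumors (4 mice), brain tumors (3 mice) and kidney called normal in the labels, referred to here as non-transformed kidney (4 mice). The controls were 3 Sglt2-Cre mice without the fusion (6 kidney libraries). In the fetal model, 5 Pax8-Cre; ASPSCR1-TFE3 LSL/+ fetuses supplied dysmorphic kidneys and 3 fetuses supplied control kidneys, which the sample labels call Pax8-Cre and the series text calls Pax8-Cre or ASPSCR1-TFE3 LSL/+. Every adult mouse thus carried Sglt2-Cre, ages were not given, and adult and fetal tissue differed in age and Cre driver at once. The Sglt2 promoter is active in the proximal tubule, whereas Pax8 is active along the nephron and the collecting duct.

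In the thick ascending limb, NKCC2 (Slc12a1) takes up sodium, potassium and chloride, ROMK (Kcnj1) returns potassium to the lumen, barttin (Bsnd) serves the basolateral chloride channels, and claudins 10, 14, 16 and 19 set which cations pass between the cells. The distal convoluted tubule reabsorbs salt through NCC (Slc12a3), which the kinase Wnk4 activates and the ubiquitin ligase adaptor Klhl3 restrains by marking WNK kinases for removal. Principal cells take up sodium through ENaC (Scnn1a, Scnn1b, Scnn1g) and water through vasopressin-regulated Aqp2 at the lumen and Aqp3 and Aqp4 at the base, and intercalated cells handle acid and base through Slc4a1, pendrin (Slc26a4), Slc26a7 and the ammonia channels Rhcg and Rhbg.

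Levels are CPM, the counts of a gene scaled to library size, after TMM scaling over all animals, with the libraries of 1 animal and tissue added together. Totals ran from 80205573 to 121415057 counts per library. A member was called changed when the edgeR quasi-likelihood test, fitted over all genes of the groups compared, gave a Benjamini-Hochberg adjusted p under 0.05, and values after ± beside a log2 fold change are standard errors (SE). The 5 genes of a fusion response list (Gpnmb, Rragb, Rragd, Gla, Mki67) summed to 3516 to 8245 CPM in kidney tumors and to 92.0 to 126 CPM in control kidneys, and all 5 were called higher. Several samples stood apart. Control fetus 3 lacked defining kidney transcripts, with 0.67 CPM of Slc12a1 against 560 and 170 CPM in control fetuses 1 and 2 and 1.26 CPM of the epithelial cadherin Cdh16 against 131 and 36.8 CPM. The dysmorphic kidneys held 0.373 to 26.8 CPM of Cdh16. The retro-orbital tumor of mouse 5 held more of nearly every kidney transcript than the other 3, and the brain tumors of mice 2 and 4 held 118 and 150 CPM of the astrocyte gene Gfap against 0.171 CPM in that of mouse 1. Beside most counts and medians of members that rest on these samples, values without them are given. For the marker and pathway lists such values were not computed.

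Promoter sequence is shown for the 3 members that were called in kidney tumors (Aqp3, Pvalb and Klhl3) and for Aqp2, the member whose window held CACGTG, the core to which TFE3 and its relatives bind. Each run is the 250 bases before the first RefSeq transcript start in GRCm38.p6, read 5′ to 3′ on the gene's strand, with any searched motif in capitals. In the GRCm38 annotation Aqp3 (ENSMUSG00000028435.8) lies at chr4:41092722-41098183 on the minus strand, Pvalb (ENSMUSG00000005716.16) at chr15:78191114-78206400 on the minus strand, Klhl3 (ENSMUSG00000014164.15) at chr13:58000228-58113592 on the minus strand and Aqp2 (ENSMUSG00000023013.4) at chr15:99579055-99584547 on the plus strand.
Aqp3, chr4:41098184-41098433, minus strand: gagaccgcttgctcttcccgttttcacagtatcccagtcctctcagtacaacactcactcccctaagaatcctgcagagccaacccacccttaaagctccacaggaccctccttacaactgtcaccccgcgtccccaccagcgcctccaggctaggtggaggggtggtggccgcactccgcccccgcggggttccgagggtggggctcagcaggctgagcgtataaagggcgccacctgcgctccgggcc
Pvalb, chr15:78206401-78206650, minus strand: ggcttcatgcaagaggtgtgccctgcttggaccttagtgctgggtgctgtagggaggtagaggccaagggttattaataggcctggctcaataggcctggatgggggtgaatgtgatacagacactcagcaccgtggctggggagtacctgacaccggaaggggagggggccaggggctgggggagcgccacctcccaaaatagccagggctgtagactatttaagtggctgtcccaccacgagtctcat
Klhl3, chr13:58113648-58113897, minus strand: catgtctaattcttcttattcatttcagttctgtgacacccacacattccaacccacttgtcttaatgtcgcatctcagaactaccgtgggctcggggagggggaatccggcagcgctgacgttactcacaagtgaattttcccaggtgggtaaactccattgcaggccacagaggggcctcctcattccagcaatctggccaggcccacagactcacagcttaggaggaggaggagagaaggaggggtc
Aqp2, chr15:99578806-99579055, plus strand: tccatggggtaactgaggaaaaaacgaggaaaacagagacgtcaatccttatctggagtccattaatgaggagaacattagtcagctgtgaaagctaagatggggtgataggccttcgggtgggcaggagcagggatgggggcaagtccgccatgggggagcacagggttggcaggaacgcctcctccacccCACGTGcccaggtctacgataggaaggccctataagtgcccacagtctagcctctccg
The capitals mark CACGTG, 58 bases before the Aqp2 start.

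Of the 37 members, 27 had a promoter sequence of this kind. Both strands were searched for CACGTG, for the longer GTCACGTG that contains it and for TCAAGGTCA, the element of estrogen-related receptors. CACGTG was present in 1 of 27 members (3.7%, Aqp2) and in 6.86% of 27025 genes with a promoter sequence, and GTCACGTG in 0 members and 2.11% of genes. TCAAGGTCA was present in 0 members and 0.422% of genes. None of Aqp3, Pvalb and Klhl3 held any of these motifs in the windows shown. These matches describe the windows only.

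In control kidneys the members spanned a wide range. Per kilobase of exon, which allows genes to be compared, uromodulin (Umod), the main protein of normal urine, led with a level of 539 CPM per kilobase, followed by Slc12a1 (388), the basolateral potassium channel subunit Kcnj16 (360), Kcnj1 (277) and the calcium-binding protein Calb1 (183). Slc12a3 reached a level of 140 and Egf, whose precursor is made by distal cells and shed into urine, 134 CPM per kilobase. Principal cell genes were lower, from Scnn1a at 46.3 to the prostaglandin E receptor Ptger1 at 0.611, and Slc26a7 (0.573) and Cldn14 (0.0357) closed the order. Cldn14 stayed between 0 and 0.381 CPM in every animal, so no fold change is given for it and the remaining 36 members carry the summaries. The 3 control mice differed little, with a median ratio of the highest to the lowest mouse of 1.49 over members.

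Counts of a few members are uncertain because the strand setting of the counting was not given. On the opposite strand, Avpr2 shares 81.3% of its exon bases with Arhgap4, Ptger1 is uncertain in the same way, and Rhbg shares 61.4% with Gm38392 on the same strand. Smaller shares held for Umod (19.5%), Tmem213 (9.83%), Wnk4 (7.38%), Egf (5.38% and 4.43%, from separate genes) and Cldn19 (2.11%).

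**Figure D1:**
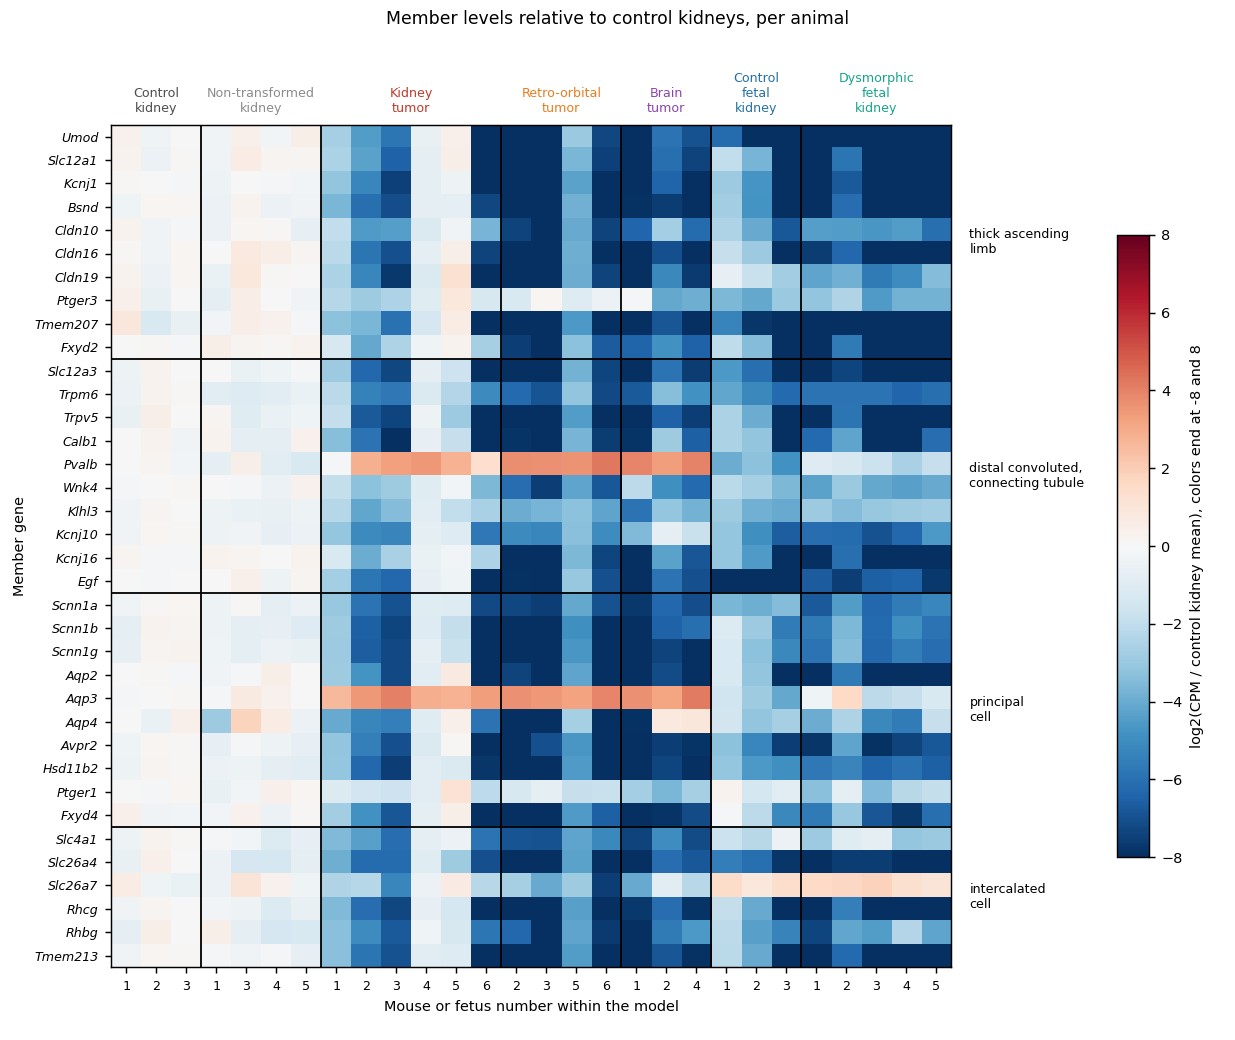
Levels of 36 members (rows, by segment) in each animal and tissue (columns, numbered by mouse or fetus), as the log2 ratio of CPM to the mean of the 3 control kidneys, with blue lower, red higher and colors ending at -8 and 8. Kidney tumors of mice 4 and 5 are close to white, most other tumor columns are blue, and Aqp3 and Pvalb are red in the tumor columns apart from Pvalb in the kidney tumor of mouse 1.

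The first comparison asked whether kidney bearing the fusion allele differed from control kidney in samples not taken from a tumor. Non-transformed kidneys kept the members near control levels, with a median over members between 75.8% and 98.8% of the control mean in the 4 mice. These kidneys were not free of the fusion response, since Gpnmb was at 111, 462, 379 and 122 CPM in them and at 1.6 to 2.51 CPM in controls, and was called higher (log2 fold change 6.97 ± 0.67, edgeR adjusted p = 0.0483). With any 1 of the controls left out, edgeR called 0 genes here, so this call was lost. None of 37 members was called by edgeR, where 0.00952% of 21019 genes were. At an unadjusted p under 0.05, 9 members passed (11.7% of genes did), and DESeq2 called 1 member, Trpm6 (2.35% of genes).

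Trpm6, the magnesium channel of the distal convoluted tubule, was at 114, 107, 120 and 147 CPM in the non-transformed kidneys of mice 1, 3, 4 and 5 and at 151, 265 and 225 CPM in controls. Klhl3 was at 26.4, 24.7, 23.5 and 26.5 CPM against 28.8, 41.5 and 35.5 CPM. These were the only 2 of 37 members whose groups did not overlap, both lower, where 7.25% of genes lay below all controls, with log2 fold changes of -0.77 ± 0.20 for Trpm6 (edgeR adjusted p = 0.231) and -0.44 ± 0.14 for Klhl3 (edgeR adjusted p = 0.303). The direction of the others was mixed, with 22 log2 values below 0 and 15 above and a median of -0.15. The lowest segment median was that of intercalated cells (-0.46), where pendrin, the chloride-bicarbonate exchanger Slc26a4, had -0.89 ± 0.29 (edgeR adjusted p = 0.306).

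In kidney tumors the members differed widely between mice. Relative to the control mean, the median over 36 members was 14.2% in mouse 1, 2.85% in mouse 2, 1.19% in mouse 3, 57.2% in mouse 4, 81.6% in mouse 5 and 0.611% in mouse 6. The median ratio of the highest to the lowest mouse was 109 over 6 mice, against 1.76 over 4 mice in non-transformed kidneys, and the median coefficient of variation was 133% against 24.8%, with 160% in retro-orbital tumors. A list of 12 proximal tubule genes moved alongside, at a median of 18.9%, 0.869%, 1.17%, 55.6%, 55.1% and 1.0% of control in the same mice. In bulk tissue, fewer cells of a type and less RNA per cell cannot be told apart, and the share of non-tumor kidney in each sample was not tested. Of the other marker lists, those of podocytes (0 of 6), proximal tubule (0 of 12), skeletal muscle (0 of 9 tested) and orbital gland (0 of 5 tested) held no called gene in kidney tumors against controls, while 1 of 4 thin limb, 4 of 12 astrocyte and glia, 3 of 10 neuron and 3 of 8 leukocyte genes were called higher, 1 of 9 tested erythroid genes lower, and 3 of 7 tested fetal kidney genes higher and 1 lower.

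Umod, Slc12a3, Slc26a4 and Aqp2, from the 4 segments, each spread widely over the tumors and were highest in mouse 4 or mouse 5. Umod ranged from 5.01 through a median of 150.0 to 1930 CPM in kidney tumors and from 1181 to 1856 CPM in controls. Slc12a3 ranged from 4.79 to 969 CPM against 1162 to 1937, and Slc26a4 from 1.02 to 68.9 CPM against 89.7 to 175. Aqp2 ranged from 0.129 to 82.5 CPM against 46.6 to 53.5, with only mouse 5 above the controls. Mouse 5 was above all controls for 10 members besides Aqp3 and Pvalb, and none of these 10 was assigned to the distal convoluted tubule.

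Against control kidneys, 3 of 37 members were called by edgeR, where 19.0% of 23578 genes were. Aqp3 and Pvalb were called higher (12.5% of genes were) and Klhl3 lower (6.51% of genes). In all, 35 of 37 log2 fold changes were below 0 with a median of -1.87, while the median over all genes was 0.05. For 18 members every tumor mouse was below every control, for Aqp3 every tumor mouse was above, and 18 overlapped. Over all tested genes, 14.7% lay below and 15.2% above all controls in this way. With the sex read from Y-linked transcripts as a covariate, 4 members were called, 2 higher and 2 lower (25.9% of genes), and the median was -2.62. The number called moved with the mice included and with the method. Without mouse 5 it was 7 (25.1% of genes), without mouse 4 it was 5 (20.9%), without mouse 3 it was 1 (13.3%), and without control 1, 2 or 3 it was also 1 (8.55%, 4.78% and 4.96%), each time Aqp3. With limma-voom over single libraries and the animal as a random block it was 32 members (31 lower), where 35.4% of genes were called, and the median was -4.36.

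Against non-transformed kidneys the same 3 members were called (17.1% of genes, 12.1% higher and 5.02% lower), and 34 with limma-voom (33 lower, 30.0% of genes). Both comparisons use the same tumors. The median log2 fold change was -1.73, 10 members lay below all 4 non-transformed kidneys (6.15% of genes did) and 1 above (11.4% of genes). Leaving out mouse 5's tumor raised the count to 9 (24.8% of genes), and leaving out the non-transformed kidney of mouse 1 or of mouse 5 lowered it to 1 (7.41% and 9.03% of genes). With the mouse as a replicate block over the 4 mice that gave both tissues, 1 member, Aqp3, was called (4.12% of genes). Within these mice, 34, 34, 29 and 22 of 37 members were lower in the tumor than in the kidney beside it in mice 1, 3, 4 and 5, and 16 were lower in 4 of 4 mice, among them Umod, Kcnj1, Slc12a3, the 3 ENaC subunits and Klhl3. The share of all genes that were lower within mice was not computed, so these counts have no background to be read against.

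**Figure D2:**
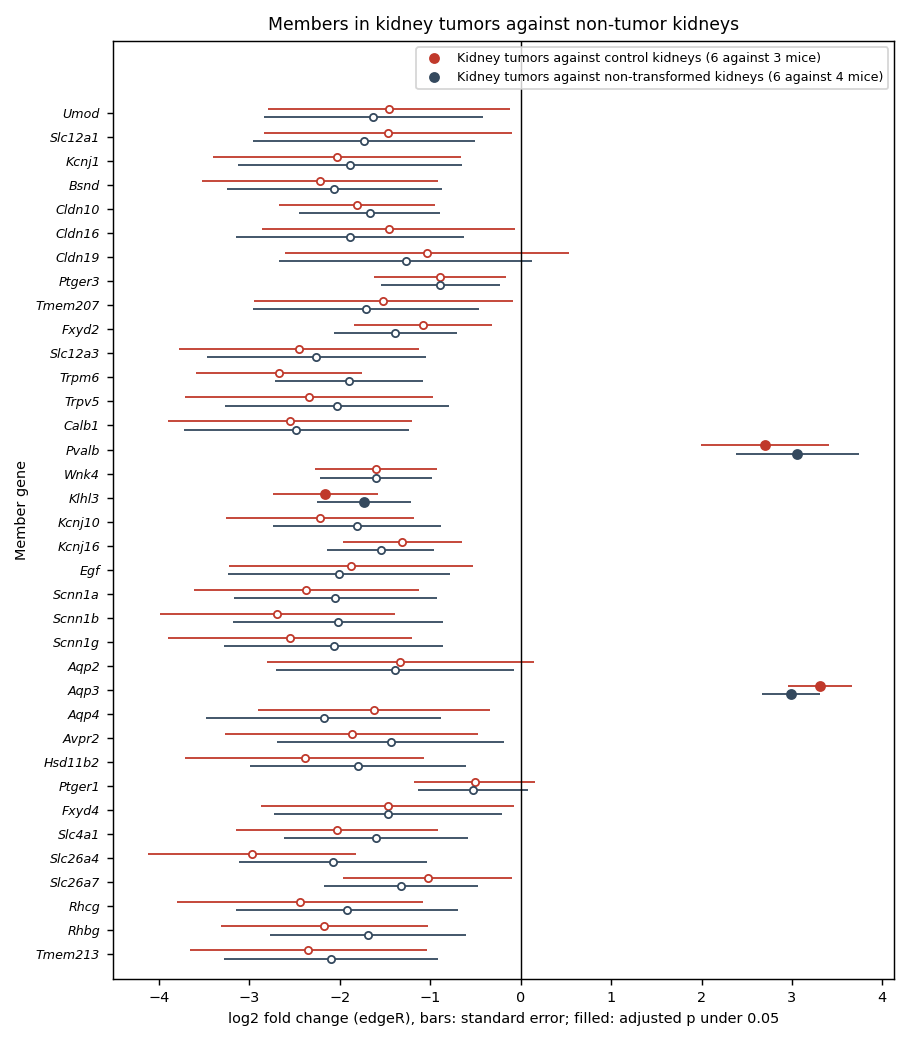
Log2 fold changes (points) with standard errors (bars) of 36 members in kidney tumors against control and non-transformed kidneys, Cldn14 left out, with filled points at an edgeR adjusted p under 0.05. Aqp3 and Pvalb lie right of 0 and are filled, Klhl3 is the only member with filled points left of 0, and most other members have wider bars.

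Aqp3, an aquaglyceroporin that passes water and glycerol, was the most even of the members in kidney tumors by the ratio of the highest to the lowest mouse. Control kidneys held 28.0, 29.8 and 32.2 CPM, non-transformed kidneys 27.1, 48.5, 37.8 and 29.9 CPM, and kidney tumors a lowest of 181, a median of 267 and a highest of 489 CPM. No tumor overlapped with any kidney, and the ratio of the highest to the lowest tumor was 2.71. The log2 fold change was 3.31 ± 0.35 against controls (edgeR adjusted p = 0.000584) and 2.99 ± 0.32 against non-transformed kidneys (edgeR adjusted p = 0.000329), and Aqp3 was called in all 19 and all 20 alternatives of these comparisons. In retro-orbital tumors it was at 377, 336, 282 and 441 CPM in mice 2, 3, 5 and 6 and in brain tumors at 384, 268 and 534 CPM in mice 1, 2 and 4. All 13 tumor samples were therefore above all 7 adult non-tumor kidneys, and neither distant site was called against kidney tumors (log2 fold change 0.26 ± 0.27 for retro-orbital tumors, edgeR adjusted p = 0.535). The partner water channel Aqp2 did not share this pattern, at 0.052 to 2.71 CPM in retro-orbital tumors.

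Pvalb, parvalbumin, a calcium buffer of the early distal convoluted tubule and of fast muscle and some neurons, was at 16.5, 19.1 and 14.2 CPM in controls and at 10.2, 23.3, 9.26 and 7.27 CPM in non-transformed kidneys. In kidney tumors it had a lowest of 15.6, a median of 115 and a highest of 187 CPM, so that 5 of 6 mice were above every control and mouse 1 was not. The log2 fold change was 2.70 ± 0.71 against controls (edgeR adjusted p = 0.0303) and 3.06 ± 0.68 against non-transformed kidneys (edgeR adjusted p = 0.0151), and the call was kept in 13 of 19 and 16 of 20 alternatives. Levels were higher still and more even elsewhere, at 220, 211, 197 and 306 CPM in retro-orbital and 245, 168 and 264 CPM in brain tumors. Every retro-orbital tumor was above every kidney tumor, yet the log2 difference of 1.10 ± 0.54 did not reach the threshold (edgeR adjusted p = 0.181).

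The libraries of 1 mouse could differ widely in Pvalb, with 5.25 and 213 CPM in mouse 2, 27.6 and 4.27 CPM in mouse 1 and 71.8 and 10.9 CPM in mouse 6. The 10 skeletal muscle markers summed to 25.8 and 198 CPM in the libraries of mouse 2. In mouse 3 the library with 247 CPM of Pvalb held 3.44 CPM of these markers, below the 12.4 to 40.6 CPM of control kidneys. Muscle sums were 3.69 to 12.9 CPM in retro-orbital and 5.94 to 39.3 CPM in brain tumors. The 10 neuron markers summed to 62.1 to 266 CPM in kidney tumors (median 127), to a median of 243 CPM in retro-orbital tumors and to 18.2 to 21.5 CPM in controls. In retro-orbital tumors Map2 (67.4 to 120 CPM), Eno2 (75.7 to 107 CPM) and Nefl (38.6 to 124 CPM) held most of the sum. Snap25 (0.525 to 1.26 CPM) and Syt1 (0.104 to 0.601 CPM) stayed low there. The part of muscle or nerve tissue in the Pvalb level was not tested.

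Klhl3 was the only member called lower in kidney tumors. It ran from 1.94 through a median of 6.49 to 19.5 CPM in the 6 mice, below every control and every non-transformed kidney. The log2 fold change was -2.16 ± 0.58 against controls (edgeR adjusted p = 0.0319) and -1.73 ± 0.52 against non-transformed kidneys (edgeR adjusted p = 0.0453). The call was kept in 13 of 19 and 11 of 20 alternatives. Its substrate Wnk4 went from 328 to 381 CPM in controls to 29.8 to 314 CPM in tumors (-1.60 ± 0.67, edgeR adjusted p = 0.119), and Slc12a3, the transporter that both act on, was not called either. Trpm6 (-2.67 ± 0.92, edgeR adjusted p = 0.0702) and Slc26a4 (-2.97 ± 1.15, edgeR adjusted p = 0.0966) had larger log2 differences but wider errors, and DESeq2 called both lower.

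**Figure D3:**
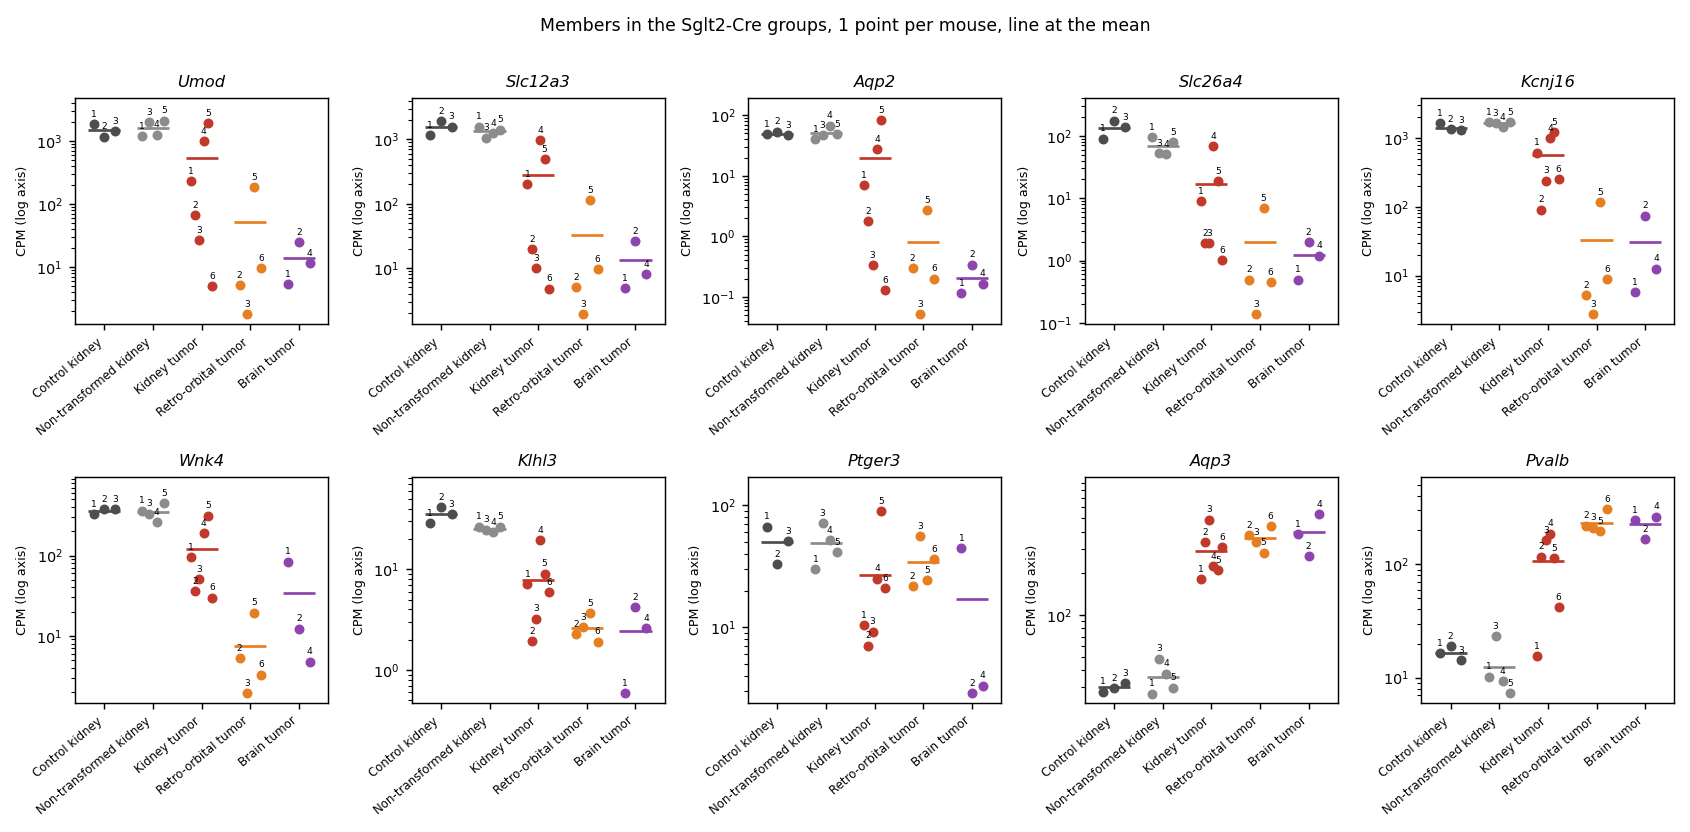
CPM (log axis) of 10 members in the 5 adult groups, 1 point per mouse numbered as in the text, with a line at the group mean. Umod, Slc12a3, Aqp2 and Slc26a4 spread widely in kidney tumors, with mice 4 and 5 the highest, while every tumor lies above every kidney for Aqp3.

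Beside Aqp3 and Pvalb, a small set of members stood above the rest by the median over the 6 tumors. Each member's percent of control was divided by the median percent of its own tumor. By this ratio Ptger1 (median 7.65 over 6 mice), the prostaglandin E receptor Ptger3 (3.57), Wnk4 (2.69), Kcnj16 (2.64), the sodium pump gamma subunit Fxyd2 (2.48) and Slc26a7 (2.12) came next, and Fxyd2, Kcnj16 and Slc26a7 were above the median of their own tumor in 6 of 6 mice and Ptger1, Ptger3 and Wnk4 in 5 of 6. At the other end stood the ENaC subunits Scnn1g (0.462) and Scnn1b (0.495) and Slc12a3 (0.518). In the tumor of mouse 6, Fxyd2 was at 69.6 CPM and Kcnj16 at 252 CPM, while Umod was at 5.01 and Slc12a1 at 7.41 CPM, although in controls Umod and Kcnj16 were of similar level in CPM (1181 to 1856 and 1285 to 1643). The log2 fold changes of Kcnj16 (-1.31 ± 0.66, edgeR adjusted p = 0.182), Fxyd2 (-1.08 ± 0.76, edgeR adjusted p = 0.331) and Ptger3 (-0.89 ± 0.73, edgeR adjusted p = 0.404) against controls were not called.

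**Figure D4:**
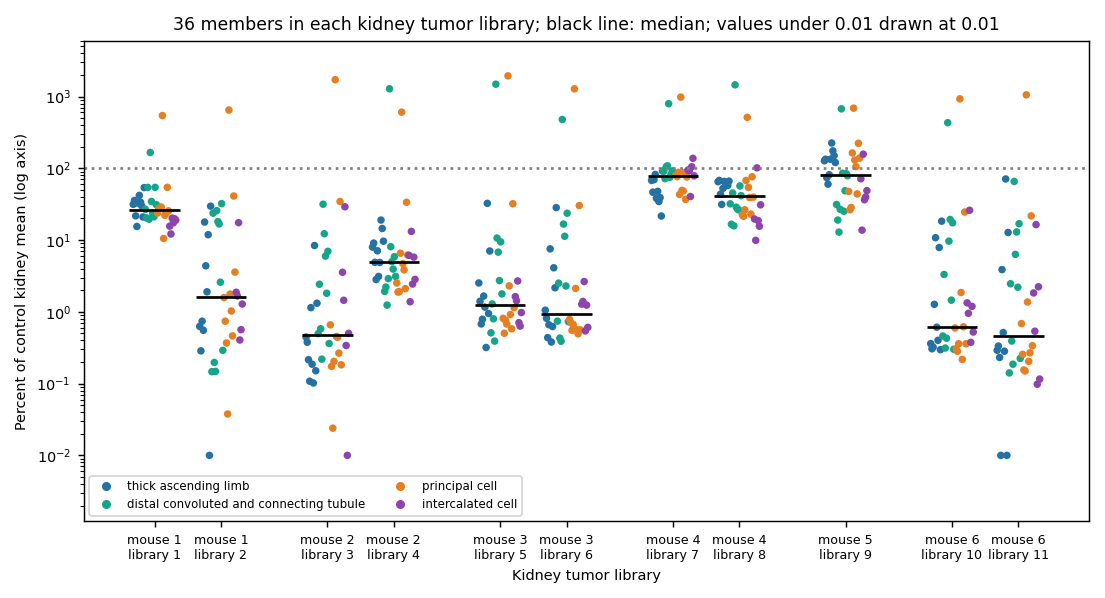
Percent of the control mean (log axis) of 36 members in each of the 11 kidney tumor libraries, colored by segment, with a black line at the median and a dotted line at 100. Medians run from 0.454 in library 11 to 80.1 in library 9, and Aqp3 lies above 100 in all 11 libraries.

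The spread was present between libraries of the same mouse as well. In mouse 1, 34 of 36 members were higher in library 1 than in library 2, with a median ratio of 9.92 (26.2% and 1.63% of control), and only Trpm6 and Aqp3 went the other way. Umod was at 469 and 9.33 CPM in this pair, while Kcnj16 was at 770 and 457 CPM. In mouse 2 the median ratio was 5.45, with 28 members higher in library 4, and in mice 4, 6 and 3 it was 1.99, 1.34 and 1.09. The proximal tubule markers summed to 4830 and 1050 CPM in the pair of mouse 1, but to 1100 and 402 CPM in libraries 3 and 4 of mouse 2, the reverse of the order of the members there. With the libraries of mouse 2 added together, Lrp2 alone held 574 of 729 CPM of this sum. The sums therefore do not show the order of the other listed genes.

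By segment, the median log2 fold change against controls was -1.46 for the thick ascending limb, -2.19 for the distal convoluted and connecting tubule, -1.74 for principal cells and -2.26 for intercalated cells. In the thick ascending limb none of 11 members was called, and Umod (-1.46 ± 1.34, edgeR adjusted p = 0.456) and Slc12a1 (-1.47 ± 1.37, edgeR adjusted p = 0.463) had errors almost as large as the change. Tumor mouse 5 held 133% of control for this segment and 120% for principal cells, but 40.8% for the distal convoluted and connecting tubule and 45.2% for intercalated cells. In tumor mouse 4 the 4 segments were even, at 57.1%, 62.4%, 55.7% and 60.1%. Among principal cell genes only Aqp3 was called, and Scnn1b had a log2 fold change of -2.69 ± 1.30 (edgeR adjusted p = 0.166). Of the intercalated cell genes 0 of 6 were called, although Slc26a4, Slc4a1, Rhcg and Tmem213 were below all controls in 6 of 6 tumor mice.

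Further genes of the pathway were read from 4 lists. Of 16 regulators and effectors of distal transport, 5 were called lower in kidney tumors than in controls by edgeR. They were the mineralocorticoid receptor Nr3c2 (log2 fold change -0.97, adjusted p = 0.0114), the aldosterone-induced kinase Sgk1 (-1.88, adjusted p = 0.0145), the ubiquitin ligase Nedd4l that removes ENaC (-1.27, adjusted p = 0.0419), the kinase Wnk1 (-1.02, adjusted p = 0.014) and the magnesium transport protein Cnnm2 (-1.22, adjusted p = 0.00293). Of 16 distal transcription factors, 3 were called lower, among them Tfcp2l1 (-1.92, adjusted p = 0.0383) and Esrrg (-1.36, adjusted p = 0.0247). None of 10 proton pump and enzyme genes of intercalated cells (median -2.44) and none of 10 distal epithelium genes (median -1.65) was called. The background of genes called lower is the 6.51% given above. Against non-transformed kidneys 3 of the 16 regulators, 2 of the 16 transcription factors and none of the other 20 genes were called, all lower, and none of the 4 lists held a called gene in non-transformed kidneys or in dysmorphic kidneys. Against kidney tumors, retro-orbital tumors had 2 of 16 regulators and 2 of 15 tested transcription factors called lower (9.45% of genes). So were 1 of 10 proton pump and enzyme genes and 1 of 10 distal epithelium genes. In brain tumors 2 of 16 transcription factors and 2 of 10 distal epithelium genes were called lower (4.2% of genes), and none of the other 2 lists. Tfcp2l1 was among those called in retro-orbital (-3.67) and in brain tumors (-4.03).

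Tumors outside the kidney held little of most members. In retro-orbital tumors the median over 36 members was 0.38%, 0.177%, 6.5% and 0.578% of the control kidney mean in mice 2, 3, 5 and 6. Slc12a1 was at 5.72, 2.8, 177 and 12.8 CPM, and Aqp2 at 0.295, 0.052, 2.71 and 0.2 CPM. The sample of mouse 5 was the high one for both genes. The proximal tubule list moved alongside, at 0.397%, 0.186%, 7.33% and 0.618% of control in the same mice. Its median log2 fold change against kidney tumors was -3.43, with 0 of 12 genes called. The Umod to Slc12a1 ratio lay between 0.638 and 1.06 in the 4 samples and between 0.609 and 0.736 in control kidneys.

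Against kidney tumors, 2 of 36 tested members were called by edgeR, both lower, where 17.7% of 22136 genes were called and 9.45% were called lower. The median log2 fold change was -3.68 (-0.09 over all genes), -5.93 without the retro-orbital tumor of mouse 5, -1.96 with the replicate block described below and -1.72 with limma-voom. Wnk4 was at 5.22, 1.93, 19.4 and 3.27 CPM, below all 6 kidney tumors (29.8 to 314 CPM), with a log2 fold change of -4.00 ± 0.96 (edgeR adjusted p = 0.0189). Kcnj16 was at 5.18, 2.75, 116 and 8.82 CPM against 90.8 to 1212 CPM, with only mouse 5 overlapping (-4.10 ± 1.27, edgeR adjusted p = 0.0497). Both belong to the members that were best held in kidney tumors, and both were low in retro-orbital tumors while Aqp3 and Pvalb were not.

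The number of calls moved with the method here too. DESeq2 called 26 members (27.1% of genes) and 31 without the retro-orbital tumor of mouse 5 (25.1% of genes), limma-voom 3 (26.5% of genes), and edgeR without the retro-orbital tumor of mouse 5 called 5, namely Wnk4, Kcnj16, Cldn10, Fxyd2 and Aqp4 (14.8% of genes). With the replicate block over the 4 mice that gave both tumors, 6 were called, those 5 and the calcium channel Trpv5 (13.1% of genes). Leaving out any other 1 of the retro-orbital tumors left 0 members (at least 8.96% of genes). Within mice, 32, 31 and 35 of 37 members were lower in the retro-orbital than in the kidney tumor of mice 2, 3 and 5, but 17 were lower and 20 higher in mouse 6, whose kidney tumor had the lowest median (0.611% of control). Pvalb was higher in 4 of 4 mice and 15 members were lower in 4 of 4, and the share of all genes that did so was not computed. Ptger3 was at 21.7, 55.4, 24.4 and 36.2 CPM against 32.9 to 66.6 CPM in control kidneys. Its log2 fold change against kidney tumors was 0.33 ± 0.67 (edgeR adjusted p = 0.771), and the part of orbital tissue in its level was not tested.

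Brain tumors resembled retro-orbital tumors in the low level of most members, with medians of 0.399%, 1.69% and 0.772% of control in mice 1, 2 and 4. The proximal tubule list was at 0.642%, 2.22% and 0.791% of control in these mice. Its median log2 fold change against kidney tumors was -4.28, with 0 of 12 genes called. Against kidney tumors 1 member was called by edgeR, where 8.74% of 23391 genes were called and 4.2% lower. This was Fxyd2, at 5.03, 15.0 and 4.92 CPM against 25.2 to 532 CPM, with a log2 fold change of -4.53 ± 1.11 (edgeR adjusted p = 0.0397). Kcnj16, at 5.77, 74.1 and 12.6 CPM, was also below every kidney tumor but was not called (-4.10 ± 1.17, edgeR adjusted p = 0.0595). The median log2 fold change was -4.34, -5.25 without the brain tumor of mouse 2 (1 member called, 4.19% of genes), -4.25 without that of mouse 4 and -2.39 with limma-voom (1 member, 16.8% of genes). DESeq2 called 24 members (21.9% of genes), 24 without brain tumor mouse 2 (17.7%) and 21 without mouse 4 (22.8%), the replicate block over 3 mice called 0 of 21827 genes and so 0 members, and leaving out brain tumor mouse 1 or 4, or kidney tumor mouse 1, 3, 4 or 5, left 0 members (3.86% to 8.52% of genes). Within mice, 34, 23 and 33 of 37 members were lower in the brain tumor in mice 1, 2 and 4, and 14 were higher in mouse 2. The share of all genes that were lower within these mice was not computed.

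Members that are also known from nerve tissue differed between the brain tumors. The astrocyte water channel Aqp4 was at 0.0949, 38.3 and 41.2 CPM in mice 1, 2 and 4 against 15.3 to 29.7 CPM in control kidneys, so that mice 2 and 4 were above all controls. The potassium channel Kcnj10, which astrocytes and the distal convoluted tubule share, was at 3.57, 25.6 and 12.2 CPM against 34.7 to 47.5 CPM, and Calb1 at 3.89, 122 and 9.68 CPM against 728 to 1072 CPM, both below all controls. The 12 astrocyte and glia markers summed to 958, 2615 and 967 CPM in mice 1, 2 and 4. Gfap was at 0.171, 118 and 150 CPM and thus highest in mouse 4, as Aqp4 was, whereas Slc1a2 (1.87, 247 and 86.1 CPM), Slc1a3 (1.96, 93.6 and 26.6 CPM), Aldoc (6.7, 155 and 33.9 CPM) and S100b (0.0, 10.9 and 2.94 CPM) were highest in mouse 2. Neuron markers summed to 353, 2044 and 329 CPM. Neither Aqp4 (1.94 ± 1.63, edgeR adjusted p = 0.479) nor Kcnj10 (0.70 ± 1.16, edgeR adjusted p = 0.738) was called against kidney tumors, and the part of brain tissue in these levels was not tested. Wnk4 was at 84.0, 12.3 and 4.77 CPM and Ptger3 at 44.6, 2.88 and 3.34 CPM, with mouse 1 the high sample for both.

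In fetal control kidneys the members were far below the adult level, and not in equal measure. The median over 36 members was 17.9%, 6.55% and 0.971% of the adult control mean in fetuses 1, 2 and 3. Against adult control kidneys 21 of 36 tested members were called by edgeR, 20 lower and 1 higher, where 49.0% of 22859 genes were called, 23.9% lower and 25.1% higher. Without control fetus 3 all 30 members called were lower (47.4% of genes were called). The median log2 fold change was -3.34, -2.78 without fetus 3, and 33 members lay below all adult controls, as did 33.4% of genes, and 34 without fetus 3 (38.1% of genes). Age, Cre driver and deposited table differ between these groups together and cannot be told apart. Markers of other tissues moved as well. Of the skeletal muscle genes 9 of 10 were called higher, with sums of 1238 to 1477 CPM against 12.4 to 40.6 CPM, of the erythroid genes 7 of 9 tested were called higher and 1 lower, and of the nephron progenitor and fetal kidney genes 7 of 8 were higher. Of the proximal tubule genes 10 of 12 were called lower (median -5.94), and the part of these tissues in the members' differences was not tested.

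Egf, Umod, Tmem207 and Slc26a4 had the lowest log2 fold changes. Egf was at 5.83, 4.28 and 4.77 CPM in the control fetuses and 1438 to 1566 CPM in adults (log2 fold change -8.16 ± 0.21, edgeR adjusted p = 2.52e-05). Umod was at 20.9, 4.4 and 1.18 CPM (-7.30 ± 1.19, edgeR adjusted p = 0.00316), Tmem207 at 0.324, 0.0595 and 0.0 CPM against 5.79 to 25.4 CPM (-6.60 ± 1.36, edgeR adjusted p = 0.00783), and Slc26a4 at 2.86, 2.02 and 0.612 CPM (-6.09 ± 0.66, edgeR adjusted p = 0.000662). By contrast, Slc12a1, made in the same cells as Umod, reached 560 and 170 CPM in fetuses 1 and 2, and was not called (-3.09 ± 1.65, edgeR adjusted p = 0.163). Without fetus 3 it was called lower (-2.58, edgeR adjusted p = 0.0122), and Umod, Egf and Slc26a4 had -6.84, -8.17 and -5.72. The Umod to Slc12a1 ratio was 0.0374 and 0.0259 in these fetuses and 0.488 to 0.812 in the 7 adult non-tumor kidneys. It was 1.75 in control fetus 3 and 0.732, 0.0845, 0.732, 1.86 and 1.01 in dysmorphic fetuses 1 to 5.

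Within ENaC, the Scnn1a subunit was at 15.0, 12.7 and 17.2 CPM against 156 to 212 CPM in adults (-3.59 ± 0.19, edgeR adjusted p = 4.63e-05). Scnn1b was at 27.2, 7.67 and 1.22 CPM against 35.7 to 72.1 CPM and Scnn1g at 35.8, 8.6 and 2.38 CPM against 54.2 to 102 CPM, so both were highest in fetus 1 and lowest in fetus 3, which had the most Scnn1a. Slc26a7, an anion exchanger of intercalated and other cells, was the single member called higher, at 8.59, 5.54 and 8.12 CPM against 4.79, 2.40 and 2.14 CPM (1.33 ± 0.38, edgeR adjusted p = 0.026). It was not called without fetus 1, without fetus 3, or without adult control 2 or 3.

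**Figure D5:**
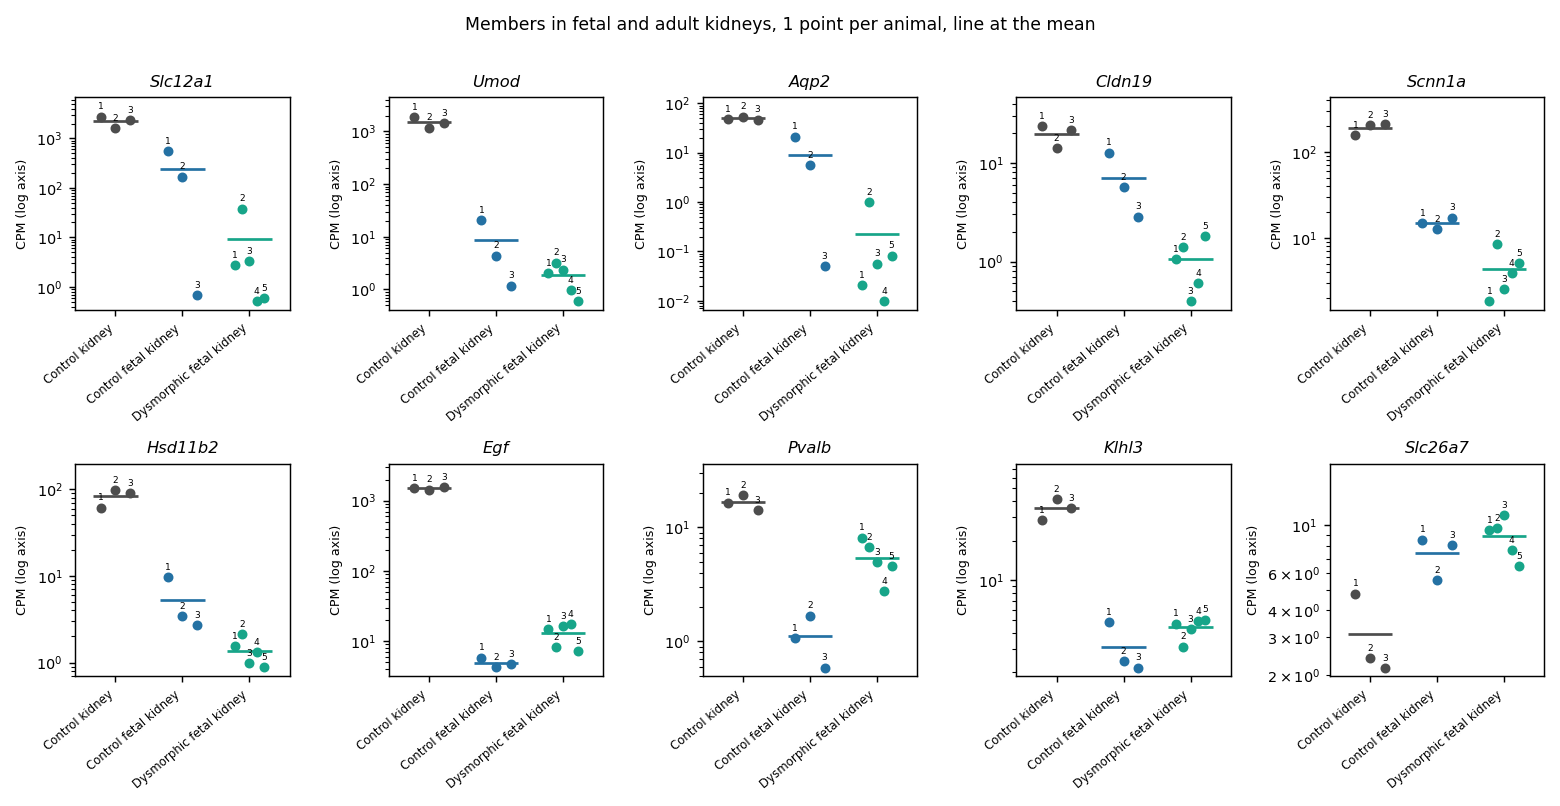
CPM (log axis) of 10 members in adult control kidneys, control fetal kidneys and dysmorphic fetal kidneys, 1 point per animal, with a line at the mean and values under 0.01 drawn at 0.01. Control fetus 3 lies with the dysmorphic kidneys for Slc12a1 and Aqp2 but not for Scnn1a or Cldn19, and Egf and Pvalb are higher in all 5 dysmorphic kidneys than in all 3 controls.

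Dysmorphic kidneys with the fusion held 0.98% to 3.5% of the adult control level over members, and dysmorphic fetus 2 had the highest value. None of 35 tested members was called against control fetal kidneys by edgeR, where 2.67% of 22690 genes were. At an unadjusted p under 0.05, 24 members passed (20.3% of genes), DESeq2 called 19 members (3 higher and 16 lower, 12.0% of genes), and the median log2 fold change was -2.0. Without control fetus 3, edgeR called 0.0% of genes and 0 members, the median was -2.31, 26 members passed at an unadjusted p under 0.05 (17.6% of genes), and DESeq2 called 15 (2 higher and 13 lower, 10.4% of genes). Without control fetus 1 the median was -1.22. Without dysmorphic fetus 2, 5 members were called (5.58% of genes), and without dysmorphic fetus 5, 3 were (5.12% of genes). With the sex read from Y-linked transcripts as a covariate, 0 members and 0.022% of genes were called and the median was -2.07.

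Markers of other cells differed between these groups too. The 12 proximal tubule genes summed to 45.5 to 836 CPM in dysmorphic and 1130 to 1392 CPM in control kidneys, with 0 called and a median log2 fold change of -2.34. Cubn alone held 1234 of 1315 CPM in control fetus 3 and 754 of 836 CPM in dysmorphic fetus 5. The list median was 3.92%, 1.43% and 0.107% of adult control in control fetuses 1 to 3 and 0.11% to 0.362% in dysmorphic kidneys. By this median control fetus 3 was below all dysmorphic kidneys. Of 6 podocyte genes 1, Podxl, was called lower (-1.48 ± 0.30, edgeR adjusted p = 0.0469), and the median was -1.89. The list of orbital gland genes summed to 300.0 to 1008 CPM against 20.7 to 111 CPM with 0 of 5 tested called, and in it Krt5, a keratin of basal epithelia, was at 539, 231, 326, 767 and 251 CPM against 78.0, 49.6 and 5.64 CPM. Dysmorphic fetus 5 stood apart with a neuron marker sum of 244 CPM, against 30.9 to 53.9 CPM in the other 4 and 19.7 to 59.1 CPM in controls. The part of these cells in the members' differences was not tested.

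The fetuses fall into 2 sets by the prefix of their titles, and the labels do not say what the prefix stands for. Control fetuses 1 and 2 and dysmorphic fetuses 1 to 3 share one prefix, and control fetus 3 and dysmorphic fetuses 4 and 5 the other. In the first set Slc12a1 was at 560 and 170 CPM in controls and at 2.76, 38.3 and 3.27 CPM in dysmorphic kidneys, and in the second at 0.67 CPM in the control and at 0.524 and 0.602 CPM in dysmorphic kidneys. In fits chosen after the data were seen, the prefix as a covariate gave 1 called member, Pvalb, higher (2.35, edgeR adjusted p = 0.0487), where 1.8% of genes were called, with a median of -1.82. The first set alone gave 0 called members and 0.0% of genes, with a median of -2.35.

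For 5 of 37 members the groups did not overlap, 2 above and 3 below all controls, where 10.6% of genes lay above and 3.93% below, and none of the 5 passed the adjusted threshold. Without control fetus 3, 2 lay above (14.9% of genes) and 24 below (8.7% of genes). Cldn19, which with claudin 16 lets calcium and magnesium pass, was at 1.06, 1.39, 0.396, 0.604 and 1.81 CPM in dysmorphic fetuses 1 to 5 and at 12.7, 5.69 and 2.86 CPM in controls (-2.79 ± 0.60, edgeR adjusted p = 0.0516). Scnn1a was at 1.84, 8.47, 2.51, 3.92 and 5.09 CPM against 15.0, 12.7 and 17.2 CPM (-1.82 ± 0.45, edgeR adjusted p = 0.0754). Hsd11b2, the enzyme that shields the mineralocorticoid receptor from glucocorticoids, was at 1.55, 2.14, 0.979, 1.31 and 0.882 CPM against 9.79, 3.45 and 2.71 CPM (-2.0 ± 0.47, edgeR adjusted p = 0.0663). For all 3 genes control fetus 3 was above every dysmorphic kidney.

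In the opposite direction, Pvalb was at 8.16, 6.74, 4.95, 2.77 and 4.55 CPM in dysmorphic and at 1.06, 1.68 and 0.588 CPM in control kidneys (2.24 ± 0.47, edgeR adjusted p = 0.0505), and Egf at 14.8, 8.19, 16.6, 17.6 and 7.25 CPM against 5.83, 4.28 and 4.77 CPM (1.33 ± 0.35, edgeR adjusted p = 0.0836). Skeletal muscle markers summed to 3026 to 7239 CPM in dysmorphic kidneys and to 1238 to 1477 CPM in controls, with 8 of 10 called higher, and their part in the Pvalb difference was not tested. Aqp3 was at 23.3, 89.2, 6.89, 8.47 and 12.7 CPM against 9.74, 4.24 and 1.77 CPM, with overlap (2.38 ± 1.03, edgeR adjusted p = 0.244). Slc12a1 was at 2.76, 38.3, 3.27, 0.524 and 0.602 CPM, where fetus 2 was the high sample and control fetus 3 (0.67 CPM) fell among the low ones (-4.78 ± 1.88, edgeR adjusted p = 0.206).

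A joint fit tested whether the fusion effect differed between the adult kidney tumors and the dysmorphic fetal kidneys. Of 37 members 1, Klhl3, was called (8.94% of 24444 genes were, 2.07% with a lower adult effect). Its effect was -2.16 in the adult model and 0.44 ± 0.31 in the fetal model, where dysmorphic kidneys held 4.69, 3.14, 4.24, 4.92 and 5.03 CPM against 4.83, 2.43 and 2.17 CPM, and the difference was -2.59 ± 0.73 (edgeR adjusted p = 0.0388). The call was kept in 12 of 23 alternatives. It was lost, among others, without control fetus 3, without control fetus 2 and without any 1 of the adult controls. Aqp3 (0.97 ± 1.0, edgeR adjusted p = 0.60) and Pvalb (0.49 ± 0.82, edgeR adjusted p = 0.761) showed no called difference between the models. The models differ in driver, age and lesion, so the test compares these groups only.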

How the data were processed

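The deposited values are raw counts per gene for each library, which the authors made from reads on GRCm38; per the labels' processing notes STAR 2.5.2a, Bowtie2, FastQC and MultiQC were used, and the counter, its strand setting and its annotation are not given in the sources used here. Between 79.0% and 84.3% of counts from 1 to 20 were even, so both mates of a pair were probably counted. Here, libraries of 1 animal and tissue were summed (28 sums), genes were filtered with filterByExpr, TMM factors were computed, and the quasi-likelihood test of edgeR was fitted on the groups compared, with Benjamini-Hochberg adjustment over all genes and a threshold of 0.05. Standard errors were derived from the log2 fold change and its F statistic. DESeq2 1.42.0 and limma-voom (limma 3.58.1) were alternatives to edgeR 4.0.16, run in R 4.3.3. The steps were tested on simulated data. The 37 members and all lists were chosen with earlier results of these data known. Any of the 37 members could be named, and values in every animal were to be given for members called in a comparison or for the 3 largest changes of a segment; other genes came from 4 pathway lists and 11 marker lists. Tissues of 1 mouse are paired by animal in the titles. Across genes, deviations of kidney tumor and non-transformed kidney from their group means correlated at 0.142, 0.163, -0.0535 and 0.0906 in mice 1, 3, 4 and 5, those of retro-orbital and kidney tumor at 0.25 to 0.326, and those of brain and kidney tumor at -0.0722 to -0.061. Libraries of 1 mouse were not duplicates (chi-square per gene 49.4 to 561). Gene positions and exon lengths came from GENCODE M21 and promoters from RefSeq. A few genes and one motif of these lists are not reported here.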

Additional observations from a re-analysis of the deposited data

Results flagged for a closer look

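Within groups of 4 to 6 animals, 56 of 148 member levels had 1 animal farther from the rest than Dixon's 95% limit, where about 7.4 would be found by chance alone. Members of 1 sample are not independent, so these flags come down to a few samples.

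The retro-orbital tumor of mouse 5 accounted for 27. In the thick ascending limb it held 188 CPM of Umod, 177 of Slc12a1, 48.1 of Kcnj1, 1.27 of Bsnd, 12.1 of Cldn10, 0.0182 of Cldn14, 2.15 of Cldn16, 1.26 of Cldn19, 0.564 of Tmem207 and 44.9 of Fxyd2. In the distal convoluted and connecting tubule it held 115 CPM of Slc12a3, 24.3 of Trpm6, 1.69 of Trpv5, 66.2 of Calb1, 4.11 of Kcnj10, 116 of Kcnj16 and 181 of Egf. In the collecting duct it held 11.2 CPM of Scnn1a, 1.92 of Scnn1b, 3.28 of Scnn1g, 2.71 of Aqp2, 3.5 of Aqp4, 0.364 of Avpr2, 3.64 of Hsd11b2, 6.88 of Slc26a4, 4.71 of Rhcg and 2.86 of Tmem213. The next sample was far lower, for example at 12.8 CPM of Slc12a1 and 11.5 CPM of Egf. Proximal tubule markers were also highest in this sample, summing to 1241 CPM against a group median of 208 CPM.

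The dysmorphic kidney of fetus 2 accounted for 17. It held 38.3 CPM of Slc12a1, 8.81 of Kcnj1, 0.271 of Bsnd, 8.48 of Fxyd2, 9.6 of Slc12a3, 0.666 of Trpv5, 47.7 of Calb1, 47.2 of Wnk4 and 21.7 of Kcnj16. Among collecting duct members it held 4.93 CPM of Scnn1b, 7.59 of Scnn1g, 0.991 of Aqp2, 89.2 of Aqp3, 0.496 of Avpr2, 1.32 of Fxyd4, 2.14 of Rhcg and 0.868 of Tmem213. It also held the highest Cdh16 (26.8 CPM) of the 5 dysmorphic kidneys. Dysmorphic fetus 5 stood apart for Cldn10 (3.08 CPM, the lowest), Cldn14 (0.181 CPM), Tmem207 (0.0494 CPM) and Kcnj10 (1.71 CPM), and dysmorphic fetus 4 for Rhbg (0.329 CPM).

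The kidney tumor of mouse 5 stood above the other 5 mice for Cldn19 (45.1 CPM, next 9.03), Ptger3 (89.2 CPM, next 25.0), Tmem207 (20.3 CPM, next 5.3), Aqp2 (82.5 CPM, next 27.6) and Ptger1 (7.57 CPM, next 1.89). That of mouse 4 did so for Trpv5 (28.7 CPM, next 10.1) and Slc26a4 (68.9 CPM, next 18.6). The last flagged value is the Klhl3 difference of the fusion effect between the adult and fetal models, -2.59 on the log2 scale, which the joint edgeR fit called.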

How the results depend on the processing

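Of 1304 fold changes of single members under an alternative, 1138 kept their direction and side of the threshold, 89 lost the call, 75 gained one and 2 turned. The turned values were of Kcnj10 in brain against kidney tumors without brain tumor mouse 2, -0.13 by edgeR and -0.12 by DESeq2, the former within a range of -0.13 to 1.37 over single samples left out. Of 156 counts of called members 88 stayed within 1.5 times the reported count and 68 did not, and the cause was not tested.

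DESeq2 called 5 members in kidney tumors against controls (30.0% of genes), 5 against non-transformed kidneys (27.4%), 1 in non-transformed kidneys, 26 in retro-orbital tumors, 24 in brain tumors and 19 in dysmorphic kidneys. In fits chosen after seeing the data, DESeq2 called 31 in retro-orbital tumors without that of mouse 5, 24 and 21 in brain tumors without that of mouse 2 or 4, and, without control fetus 3, 15 in dysmorphic kidneys and 34 in fetal against adult controls (54.3%). Limma-voom over libraries called 32 and 34 in kidney tumors, 3 in retro-orbital tumors, 1 in brain tumors and, in fetal against adult controls, 32 (51.4%). Fitting all groups together called 5 in kidney tumors against controls (21.5%), 17 in retro-orbital (19.7%) and 21 in brain tumors (26.0%). Every library as its own sample called 12 (44.7%) and 5 (23.2%) in kidney tumors, 2 in brain tumors (18.2%) and 30 in fetal against adult controls (58.2%). It gives nothing new for dysmorphic against control fetal kidneys, with 1 library each, and was not run there. For retro-orbital tumors RLE factors, upper quartile factors and no filter each called 1 (17.3%, 17.2% and 9.33%). For dysmorphic kidneys a stricter filter and halved counts each called 2 (5.06% and 3.42%), and for the difference between models no filter called 0 (4.3%).

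With the mouse as a replicate block, 1 member was called in kidney tumors against non-transformed kidneys, 6 in retro-orbital and 0 in brain tumors.

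Leaving out single samples gave 1 to 7 calls in kidney tumors against controls, 1 to 9 against non-transformed kidneys, 0 to 5 for retro-orbital and 0 to 1 for brain against kidney tumors, 0 to 5 in dysmorphic kidneys, 15 to 30 in fetal against adult controls and 0 to 1 for the difference between models. Over these fits the log2 fold change of Aqp3 against controls stayed between 3.09 and 3.43, that of Pvalb between 2.46 and 2.96 and that of Klhl3 between -2.68 and -1.96. The shallowest library held 80205573 counts, so depth limits only members near 0 such as Cldn14. Fits with sex, read from Y-linked transcripts, as a covariate called 4 members in kidney tumors against controls and 0 in dysmorphic kidneys. The prefix of the fetal titles as a covariate, chosen after seeing the data, called 1 member in dysmorphic kidneys, and the fetuses of the first prefix alone 0. Small groups and formalin-fixed tissue limit all results, as does an unstated strand setting.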
